A study of Homo sapiens with 6 samples.

Results

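The transcripts of 4 genes of the calpain system were followed in SW480 cells induced to express KIAA1199: CAPN1 (ENSG00000014216_at), CAPN2 (ENSG00000162909_at), CAPNS1 (ENSG00000126247_at) and CAST (ENSG00000153113_at). They were taken by their Ensembl gene identifiers, a rule that reads no measured value, but were chosen with earlier results of these data known. All 4 were present among the 26445 probe sets of the series. SW480 is an epithelial line from a human colorectal cancer. The cells on all 6 arrays carried a vector for the tetracycline repressor and the pT-Rex-DEST30-KIAA1199 construct, and were kept under blasticidin S and G418 in Tet-system-approved serum. Per the study's methods they were a single inducible clone, so the values describe 1 clone. Total RNA came from 3 independent experiments, each with 1 culture given doxycycline at 50 ng/ml for 48 h and 1 uninduced culture. Repressor-only cells given doxycycline were not analysed here, so the effects of doxycycline itself and of KIAA1199 cannot be told apart.

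Calpains are cysteine proteases of the cytosol that need calcium to become active and cut their substrates at a limited number of sites, many of them in proteins of the cytoskeleton and of cell adhesions. The classical enzymes are pairs of a large catalytic subunit and a small regulatory one. CAPN1 encodes the large subunit of µ-calpain and CAPN2 that of m-calpain, CAPNS1 encodes the small subunit that both share, and CAST encodes calpastatin, their inhibitor. Beta-catenin is among the proteins that calpain can degrade.

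The values were log2 expression levels from GeneChip Human Exon 1.0 ST arrays, whose probes lie along the exons, with 1 level per gene and array. Every array had a median level of 5.66, and Pearson's r across probe sets ranged from 0.984 to 0.989 for pairs of arrays. The Ensembl identifiers were not paired with gene symbols beyond the 4 genes. The KIAA1199 transcript, the markers of colorectal epithelium and the other calpain genes were therefore not analysed here by name. The largest rise of any probe set was at ENSG00000103888_at, whose levels of 7.76, 7.63 and 7.90 without doxycycline became 9.60, 9.23 and 9.96 with it in experiments 1, 2 and 3. With limma and the experiment as a block, 1543 probe sets passed the limits by which the study selected genes (unadjusted p below 0.025 and a change of 1.2-fold or more), and 766 of them, 2.9% of all probe sets, were raised. None (0%) had a Benjamini-Hochberg adjusted p under 0.05 in limma or in the methods' t-test, although 3248 and 2755 had an unadjusted p under 0.05. The methods' t-test is the paired test named in the study's methods, rerun here on the deposited gene levels. The study itself tested transcript clusters, so the p-values given here are not its own.

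CAPN1, the catalytic subunit of µ-calpain, was the member of the group with the largest difference, 26.1% higher with doxycycline. In limma it was also the only one of the 4 genes past the study's limits, which 2.9% of all probe sets passed upward. None of the 4 passed both limits in the methods' t-test, where 577 of the 26445 probe sets did so in either direction. Without doxycycline the log2 level of CAPN1 was 8.08, 7.89 and 8.06 in experiments 1, 2 and 3. With doxycycline it was 8.27, 8.23 and 8.53. All 3 induced arrays lay above all 3 uninduced ones, with a gap of 0.16 between the groups, and 8.64% of all probe sets were separated in this direction. The means were 8.01 ± 0.11 (SD, n = 3) and 8.34 ± 0.17 (SD, n = 3).

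The 3 experiments gave CAPN1 log2 differences of 0.19, 0.34 and 0.47, or folds of 1.14, 1.27 and 1.39. All were upward, as was the case for 18.9% of all probe sets, and for 28.0% of the 6611 probe sets in the 25% with the highest mean level, to which the 4 genes belonged. In experiment 3 only 4.95% of the probe sets had a larger rise than CAPN1, in experiment 2 it was 8.84%, and in experiment 1 it was 18.5%. The limma estimate was a log2 fold change of 0.33 (standard error 0.083, 95% confidence interval 0.10 to 0.56), that is, 1.26-fold with an interval from 1.08 to 1.48. Its unadjusted p in limma was 0.016, where 6.36% of all probe sets were raised with an unadjusted p under 0.05. Its Benjamini-Hochberg adjusted p in limma was 0.352, and the smallest of any probe set was 0.349. The 1.2-fold minimum was exceeded upward by 7.43% of the probe sets whatever their p. Among the brightest 25%, 4.93% of the probe sets passed both limits upward.

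The call of CAPN1 depended on the test and on the experiments. In the methods' t-test, as rerun here on the deposited gene levels, its p was 0.054, above the limit. Without experiment 2 or experiment 3 the unadjusted limma p was 0.067 or 0.066, with log2 fold changes of 0.33 and 0.27, whereas without experiment 1 the change was 0.41 and the p 0.020. An exact sign-flip permutation test over the 3 experiments gave a two-sided p of 0.25, the smallest that 3 pairs allow.

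**Figure D1:**
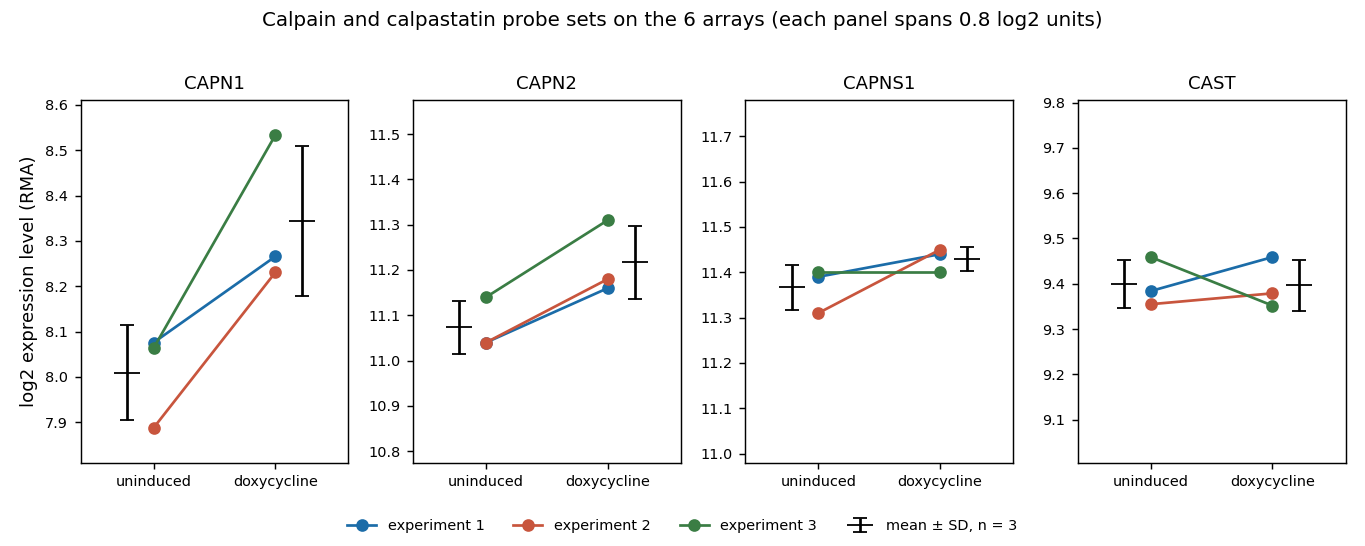
Log2 expression levels of the 4 genes (y axis, each panel spanning 0.8 log2 units) in uninduced and doxycycline-treated cells (x axis). Each coloured line joins the 2 arrays of an experiment and black marks give the mean ± SD of 3 arrays. CAPN1 and CAPN2 climb in every experiment, while the CAPNS1 groups touch and the CAST groups overlap.

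CAPN2, the catalytic subunit of m-calpain, differed in the same direction but by less, 10.4% on average. Its log2 level was 11.04, 11.04 and 11.14 without doxycycline and 11.16, 11.18 and 11.31 with it. The groups did not overlap, as was the case in this direction for 8.64% of all probe sets. The lowest induced array stood only 0.02 above the highest uninduced one, and levels of 10 and above were deposited with 2 decimals. The means were 11.07 ± 0.058 (SD, n = 3) and 11.22 ± 0.081 (SD, n = 3).

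The CAPN2 differences were 0.12, 0.14 and 0.17 in the 3 experiments, and their SD of 0.025 compares with a median SD of 0.10 among the brightest 25%. Experiment 3 was the higher of the 3 for both its uninduced and its induced array, so the offset of that experiment was larger than the spread of the differences. The limma log2 fold change was 0.14 (standard error 0.061, 95% confidence interval -0.025 to 0.31), with an unadjusted p of 0.078 and an adjusted p of 0.45. A larger rise was seen in 18.3% of all probe sets. The interval includes 0 and reaches a 1.24-fold rise.

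Because it uses the gene's own spread alone, the methods' t-test gave CAPN2 a smaller p, 0.010, than CAPN1. At that p limit of 0.025 and with no minimum on the fold, it counted 2.96% of all probe sets as raised. Where limma's variance prior followed the level of the probe set (trend = TRUE), CAPN1 and CAPN2 had unadjusted p-values of 0.0061 and 0.017, with 4.95% of the probe sets raised at the same p limit. CAPN2, at 1.10-fold, stayed under the 1.2-fold minimum in each of these tests, and its adjusted p was 0.42 in the methods' t-test and 0.23 in limma with the trend.

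**Figure D2:**
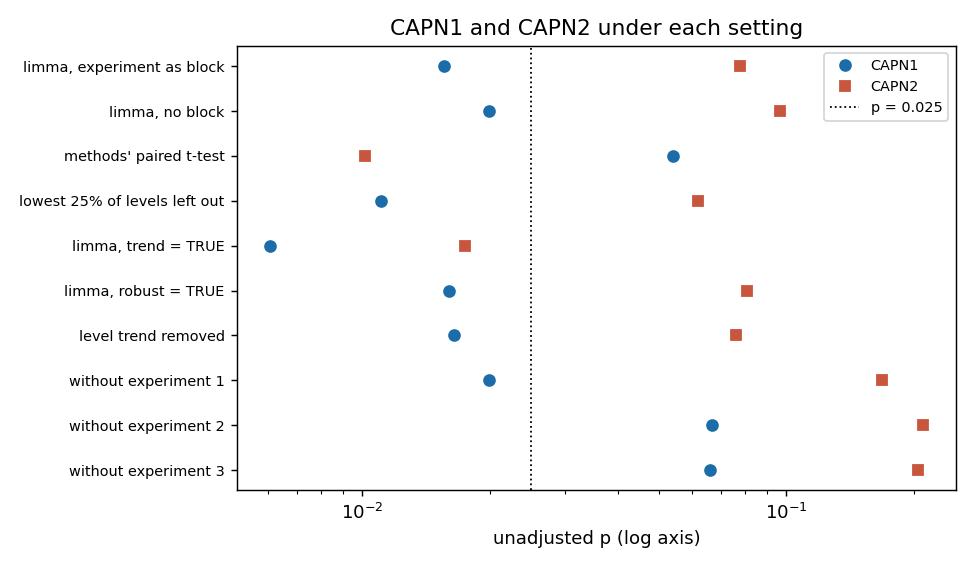
Unadjusted p (x axis, log scale) of CAPN1 (circles) and CAPN2 (squares) under the tests and settings named on the y axis, with a dotted line at 0.025. CAPN1 lies left of the line except in the methods' t-test and without experiment 2 or 3, and CAPN2 lies left of it only in the methods' t-test and in limma with the trend.

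CAPNS1, the small subunit without which neither large subunit is stable, had log2 levels of 11.39, 11.31 and 11.40 without doxycycline and 11.44, 11.45 and 11.40 with it. The groups touched at 11.40 without mixing, since the induced array of experiment 3 equalled its uninduced partner at the 2 decimals deposited. The differences were 0.05, 0.14 and 0 in the 3 experiments, with means of 11.37 ± 0.049 (SD, n = 3) and 11.43 ± 0.026 (SD, n = 3). The limma log2 fold change was 0.063 (standard error 0.067, 95% confidence interval -0.12 to 0.25, adjusted p = 0.74), and 33.3% of all probe sets had a larger rise. It was 0.025 without experiment 2 and 0.095 without experiment 3. A change of up to 1.19-fold upward or down to 0.92-fold lies within the interval.

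CAST, the inhibitor, had log2 levels of 9.38, 9.36 and 9.46 without doxycycline and 9.46, 9.38 and 9.35 with it. The order of the arrays did not follow the treatment, and the uninduced array of experiment 3 and the induced array of experiment 1 shared the highest level. The means were 9.40 ± 0.054 (SD, n = 3) and 9.40 ± 0.056 (SD, n = 3). CAST was higher by 0.075 and 0.024 in experiments 1 and 2 and lower in experiment 3, at -0.11. The limma log2 fold change was -0.0027 (standard error 0.071, 95% confidence interval -0.20 to 0.19, adjusted p = 0.99), which turned to 0.050 without experiment 3. Only 1.58% of all probe sets had a smaller absolute change. The interval holds folds from 0.87 to 1.14. Calpastatin is made in many splice forms from several promoters, and the single gene level does not resolve them. In the GRCh38.p14 annotation of RefSeq the CAST locus also overlaps 3 other protein-coding genes, ELL2, ERAP1 and PCSK1. The overlap was counted without regard to strand, and the share of probes that could read those genes was not tested.

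**Figure D3:**
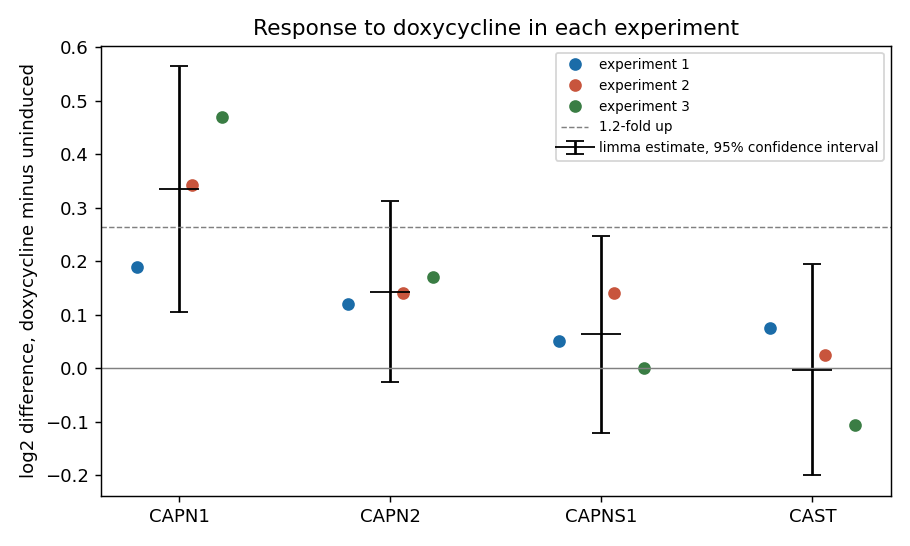
Log2 difference between doxycycline and uninduced cells (y axis) for each gene (x axis). Coloured points are the 3 experiments, black bars the limma estimate with its 95% confidence interval, and the dashed line marks a 1.2-fold rise. Only the interval of CAPN1 lies wholly above 0, and its estimate of 0.33 is the only one above the dashed line.

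Set against each other within the same cultures, the responses of the subunits and the inhibitor were compared in 6 pairs. Their levels were unlike: the uninduced mean of CAPN1 lay above 85.6% of all probe sets, and that of CAST above 95.6%. Those of CAPN2 and CAPNS1 lay above 99.6% and 99.8%. Whether log2 differences at such unlike levels share 1 scale was not tested. The CAPN1 difference exceeded that of CAST by 0.12, 0.32 and 0.58 in experiments 1, 2 and 3, a mean of 0.34 ± 0.23 (SD). It exceeded that of CAPNS1 by 0.14, 0.20 and 0.47, and that of CAPN2 by 0.070, 0.20 and 0.30. CAPN2 exceeded CAST by 0.045, 0.12 and 0.28. These 4 pairs kept their sign in all 3 experiments, and each had an exact sign-flip permutation p of 0.25 (two-sided, the smallest possible) and of 0.38 after adjustment over the 6 pairs. The remaining pairs did not keep it. CAPN2 and CAPNS1 gave the same difference in experiment 2, and CAPNS1 fell behind CAST by 0.025 in experiment 1, each with an exact permutation p of 0.50. A larger response of CAPN1 than of its partners was thus seen in each experiment. As CAPN1 had the largest mean difference of the 4 genes, its mean excess over the others follows from that. The sign-flip p is 0.25 for any pair that keeps its sign in 3 experiments, whatever the size of the difference. The test could therefore not place a pair past a threshold of 0.05.

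**Figure D4:**
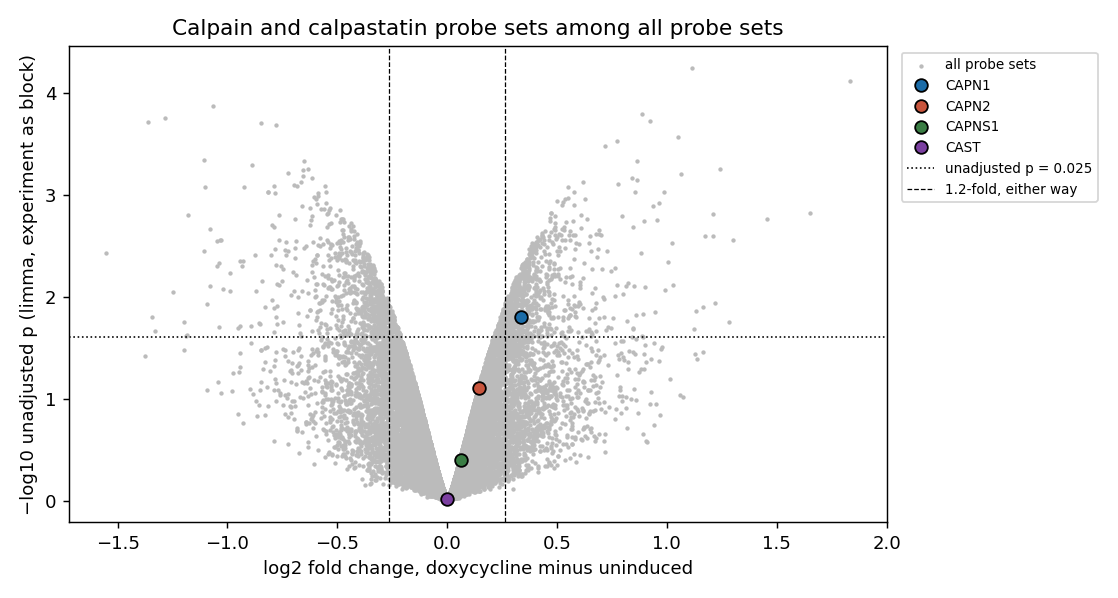
Log2 fold change (x axis) and -log10 of the unadjusted limma p (y axis) of all 26445 probe sets in grey, with the 4 genes in colour. The dotted line marks the p limit of the study and the dashed lines a 1.2-fold change. CAPN1 lies just inside the upper right field that holds 2.9% of the probe sets, and the other 3 genes lie outside it.

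The first annotated starts of the genes for the catalytic subunits, whose levels were higher with doxycycline in each experiment, are preceded by unlike sequences. They are shown from RefSeq (GRCh38.p14, plus strand, 250 bases before the first annotated base of the gene, 5′ to 3′), at chr11:65181123-65181372 for CAPN1 and chr1:223701347-223701596 for CAPN2. Capitals mark any match, on either strand, to 6 short motifs: the GC box GGGCGG, the CCAAT box CCAAT, the TATA box TATAAA, the E-box CACGTG, the TCF/LEF core CTTTGA and the AP-1 site TGACTCA.
CAPN1: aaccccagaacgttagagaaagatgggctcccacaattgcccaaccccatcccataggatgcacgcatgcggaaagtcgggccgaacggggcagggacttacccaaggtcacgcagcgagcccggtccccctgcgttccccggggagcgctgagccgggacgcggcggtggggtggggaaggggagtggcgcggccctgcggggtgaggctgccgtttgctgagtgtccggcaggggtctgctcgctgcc
CAPN2: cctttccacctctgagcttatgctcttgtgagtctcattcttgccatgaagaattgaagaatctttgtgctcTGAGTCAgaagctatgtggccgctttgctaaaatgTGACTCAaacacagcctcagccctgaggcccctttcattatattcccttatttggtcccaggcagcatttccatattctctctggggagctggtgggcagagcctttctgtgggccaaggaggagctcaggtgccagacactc
The CAPN1 window holds none of the 6 motifs, and 68.4% of its bases are G or C. The CAPN2 window, at 50.0% G or C, holds 2 AP-1 sites, which do not overlap, and none of the other motifs. Of 35116 windows of this length in the table, 4.2% hold an AP-1 site, 42.6% a GC box, 32.0% a CCAAT box, 11.2% a TCF/LEF core, 10.7% a TATA box and 6.34% an E-box, with a median of 58.0% G or C. Both genes have further annotated starts, 3 in all for CAPN1 and 2 for CAPN2. The 2 later CAPN1 windows overlap each other and hold 1 and 5 GC boxes and 1 CCAAT box each, while the later CAPN2 window, at 78.8% G or C, holds none of the motifs. An AP-1 site is not particular to CAPN2 among the 4 genes, since the CAST window at chr5:96743352-96743601 also holds 1. The window before the first CAPNS1 start holds 3 GC boxes and no other motif. A gene level does not show which start was used in these cells, and a match of letters is no evidence that a factor bound there.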

How the data were processed

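Log2 expression levels were deposited by the authors for 6 Affymetrix GeneChip Human Exon 1.0 ST arrays, summarised by RMA per the labels, with 1 value per Ensembl gene identifier. The annotation version and genome build behind them are not given in the sources used here. RMA levels share 1 distribution between arrays, so a shift common to all transcripts would not be seen, and small changes are drawn towards 0. Levels under 10 carry 3 decimals and higher ones 2. No column was left out. With 3 arrays per group, their number sets the precision, and detection calls were not used here.

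Groups and experiment numbers came from the sample titles, since the treatment text in the labels gives doxycycline for every sample, those titled uninduced included. Doxycycline minus uninduced was tested 2-sided in limma 3.58.1 (R 4.3.3, lmFit and eBayes) on all 26445 probe sets, with the experiment as a block as in the study's paired test, and Benjamini-Hochberg adjustment over all of them. The code was tested on simulated data. Other settings are given in the closing section. The 4 genes, the lists and the motifs were chosen with earlier results of these data known. The named genes were to be these 4, KIAA1199, and, where a table paired identifiers with symbols, other calpain genes, calpain substrates, marker genes and the probe sets most like each gene. The reference table used here had no Ensembl identifiers, so only the 4 genes are named. Promoter sequences came from RefSeq (GRCh38.p14), in which all 4 genes were matched by symbol.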

Additional observations from a re-analysis of the deposited data

How the results depend on the processing

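Under the 10 other settings, CAPN1, CAPN2 and CAPNS1 were higher with doxycycline in each one, a direction that was mostly fixed in advance. Only removing the level trend or leaving out an experiment could alter the estimates. The fits without an experiment reuse the same differences, none of which was below 0 for these genes. CAPN1 was past the study's limits in 7 of the 10 settings, with unadjusted p-values from 0.0061 to 0.067 and adjusted ones from 0.19 to 0.62. It was not past them in the methods' t-test (log2 fold change 0.33), nor without experiment 2 or 3, which leaves fewer arrays, and its change with an experiment left out ran from 0.27 to 0.41. CAPN2 (unadjusted p 0.010 to 0.21) and CAPNS1 (0.24 to 0.80) were past them in none. CAST ran from -0.042 without experiment 1 to 0.050 without experiment 3, where it reversed, and the cause was not tested. Centring the arrays changed nothing, since their medians were already equal.

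Over all probe sets, 1543 passed the study's limits, against 577 in the methods' t-test, 238 with a 1.5-fold minimum and 986 to 1344 with an experiment left out. The count with an unadjusted p under 0.05 was 3248, and 2116 to 2623 with an experiment left out, and the count at an adjusted p under 0.05 was 0 in limma and in the methods' t-test throughout.

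Without the replicate block, the count past the limits was 1050, and CAPN1 stayed past them (log2 fold change 0.33, unadjusted p = 0.020 in limma). The deviations of same-numbered arrays from their group means correlated with an r of 0.039, 0.049 and 0.13. For differently numbered arrays r ran from -0.092 to 0.044. These values are all low, so the pairing rests mainly on the study's own paired test. The settings planned for other calpain genes and calpain substrates were not run, for want of identifiers that could be named.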
